A study of Mus musculus with 4 samples.

Results

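The metalloproteinases that remodel the extracellular matrix and shed membrane proteins, and the inhibitors that hold them in check, were compared between 2D- and 3D-cultured AML12 cells. Members were the protein-coding genes of the deposited expression table whose symbol is that of a matrix metalloproteinase (Mmp), an Adamts gene, an Adam gene or Timp1 to Timp4. This rule used no measured value and gave 66 genes out of 31828 in the table, 18623 of them protein-coding. They were 14 secreted MMPs, 17 ADAMTS genes, 6 membrane-type MMPs, 25 ADAMs and 4 TIMPs.

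Matrix metalloproteinases are zinc enzymes that are made as inactive precursors and cut collagens, laminins and other matrix proteins once their propeptide is removed. ADAMTS enzymes are secreted relatives that process procollagens and proteoglycans, whereas most ADAMs sit in the cell membrane and release the outer parts of growth factors, receptors and adhesion molecules. TIMPs are small secreted proteins that plug the active site of these enzymes, and in liver the balance of MMPs and TIMPs is known for its part in the turnover of scar matrix.

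AML12 is an immortalised mouse hepatocyte line, derived from a mouse that carried a human TGF-alpha transgene. RNA was measured in 4 libraries, 2 of cells on a culture dish (2D) and 2 of cells inside Matrigel, a gel of basement membrane proteins (3D). Hydroxyurea, which blocks DNA synthesis and arrests the cycle between G1 and S, was given to all cells at 1 mM, to 2D cultures for 24 h and to 3D cultures for 36 h, so the effects of culture and of treatment time cannot be told apart. No untreated cells are among these libraries. The labels do not say whether replicates came from separate cultures, so that p-values measure the spread between these libraries, which may be technical.

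The line was checked against markers of liver cell types. Of 8 hepatocyte markers 7 had a mean of at least 1 TPM (a transcript level that is corrected for length and scaled to the same total in each library), but Serpina1a did not exceed 0.0768 TPM. From 2D to 3D, Alb rose 11.3-fold (to 12.7 and 10.0 TPM), Ttr 23.8-fold, Hnf4a 2.80-fold and Apoa1 2.25-fold, while the keratins Krt18 and Krt8 fell 1.88- and 1.77-fold, which took the summed list from 9602 and 9401 to 5355 and 5431 TPM. Of the biliary markers Krt19 and Krt7 fell 1.41- and 1.57-fold, Sox9 rose 1.56-fold and Epcam was near 0, with a sum of 2235 and 2156 TPM in 2D and 1505 and 1571 TPM in 3D. Among markers of other cell types, the leukocyte genes Adgre1, Ptprc and Csf1r did not exceed 0.534 TPM, the 4 endothelial markers did not exceed 0.657 TPM, and Col1a1, Col3a1, Dcn, Lum and Pdgfrb did not exceed 0.765 TPM. The summed macrophage and leukocyte list rose from 132 and 133 TPM in 2D to 297 and 293 TPM in 3D, and nearly all of it was Cd14 and Cd68, and the fibroblast list, almost wholly Des, went from 35.0 and 37.6 to 19.7 and 18.7 TPM. Their part in the results below was not tested. In such bulk samples fewer cells of a type and less RNA per cell cannot be told apart.

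Most members were silent or nearly so. Only 22 of the 66 genes had a mean of at least 1 TPM over the libraries and entered the test, and each of these reached at least 1.28 TPM in every library, so none of them passed through a single culture. The remaining 44 stayed below 1 TPM in all libraries, 36 of them below 0.5 TPM, and 20 were listed at 0 in at least 1 library. The untested members included both gelatinases, Mmp2 at 0.463 to 0.796 TPM and Mmp9 at 0.187 to 0.453 TPM, and the 18 ADAMs without a testable level included many that are known from testis, such as Adam2, Adam3 and Adam24.

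Of the 22 tested members, 8 rose and 6 fell from 2D to 3D at an adjusted p-value under 0.05 (limma on log2(TPM + 1), adjusted over all genes tested). These 14 were 63.6% of the tested members, against 50.5% of all 14116 genes tested, of which 23.4% were higher and 27.1% lower. Of the 22, 10 (45.5%) also had a log2 change above 1 in size, 4 higher and 6 lower, against 8.2% of all genes tested. The median log2 fold change of the tested members was 0.04 and that of all tested genes was -0.04, while the median size of the change regardless of sign was 0.66 and 0.31. The libraries of the cultures did not overlap for 17 of the 22 members, against 77.5% of all genes tested. Log2 fold changes are of TPM + 1, so that genes of low TPM show a smaller change than their TPM do, whereas folds in the text are ratios of mean TPM.

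**Figure D1:**
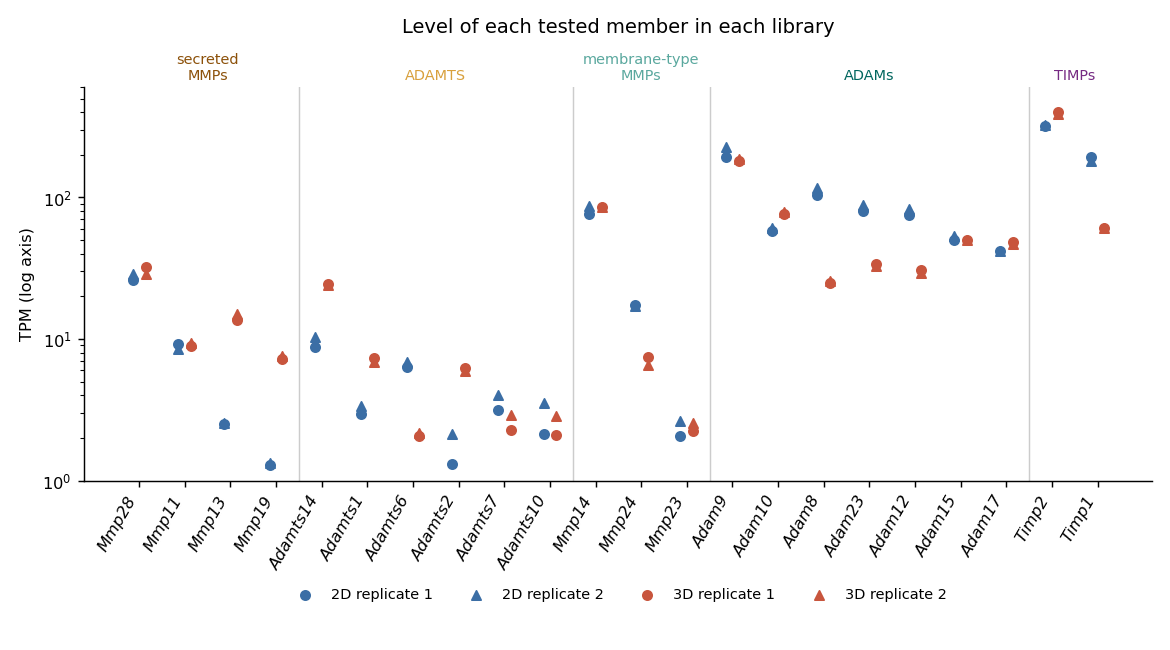
TPM (log axis) of the 22 tested members in each of the 4 libraries, grouped by family and ordered by mean TPM within it. Blue marks are 2D and red marks 3D libraries, circles replicate 1 and triangles replicate 2. Timp2 is the highest member in every library, and Mmp13, Mmp19, Adam8 and Timp1 are among the genes whose red and blue marks lie far apart.

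Of 31 secreted MMP and ADAMTS genes 10 were tested, of which 5 were higher, 1 was lower and 4 did not pass the test, against the 23.4% higher and 27.1% lower among all genes tested. The summed level of the secreted MMPs was 40.3 and 42.8 TPM in 2D and 63.7 and 62.8 TPM in 3D, and that of the ADAMTS genes was 26.8 and 32.9 TPM in 2D and 46.8 and 47.6 TPM in 3D. For both families the 3D libraries lay above the 2D libraries.

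The largest rise was in Mmp13, collagenase-3, which cuts fibrillar collagens and is a main interstitial collagenase of rodents. Mmp13 (ENSMUSG00000050578, GRCm38 chromosome 9, 7272514 to 7283331) was at 2.52 and 2.55 TPM in the 2D libraries and at 13.7 and 15.0 TPM in the 3D libraries. Each 3D library was thus more than 5 times as high as either 2D library, and the means differed 5.67-fold. On the log2 scale the change was 2.12 (SE 0.09, adjusted p by limma 0.000361), the 98th in order from the highest among all 14116 genes tested. Mmp13 took up 6.25% and 5.96% of the summed TPM of secreted MMPs in 2D and 21.5% and 23.9% in 3D.

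Mmp19, a secreted MMP that can cut basement membrane components, changed by nearly the same factor from a lower start. Its level (chromosome 10, 128790910 to 128800824) was 1.28 and 1.33 TPM in 2D and 7.20 and 7.58 TPM in 3D, a 5.66-fold difference. On the log2 scale the rise was 1.86 (SE 0.10, adjusted p by limma 0.000515). The values of these low genes depended on the pseudocount. With 0.1 or 5 in place of 1, the log2 fold change was 2.46 or 1.36 for Mmp13 and 2.41 or 0.97 for Mmp19, past the threshold in each case.

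The 2 secreted MMPs with the highest mean level did not pass the test. Mmp28, epilysin, was at 26.1 and 28.9 TPM in 2D and 32.5 and 28.8 TPM in 3D, with overlapping cultures and a log2 change of 0.15 (SE 0.09, limma adjusted p 0.222). Mmp11, stromelysin-3, which is activated by furin within the secretory pathway, was at 9.27 and 8.50 TPM in 2D and 8.92 and 9.37 TPM in 3D (log2 fold change 0.04, SE 0.09, limma adjusted p 0.738). The rise of the secreted MMP sum therefore lay mainly in Mmp13 and Mmp19.

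Mmp13 stands at one end of a cluster of 8 MMP genes of the table on chromosome 9 that spans 427 kb, from 7272514 to 7699585. The other 7, in order Mmp12, Mmp3, Mmp10, Mmp8, Mmp27, Mmp20 and Mmp7, did not exceed 0.139 TPM in 2D or 0.355 TPM in 3D. Mmp10, stromelysin-2, was listed at 0 and 0.0348 TPM in 2D and at 0.106 and 0.325 TPM in 3D, and Mmp3, stromelysin-1, at 0.0350 TPM in 1 library of 2D and at 0 in the other 3 libraries. The flanking genes Dcun1d5 (88.7 to 103 TPM) and Tmem123 (52.2 to 56.9 TPM) were high in all libraries. Mmp13 was the sole gene of the cluster that reached 1 TPM in any library.

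**Figure D2:**
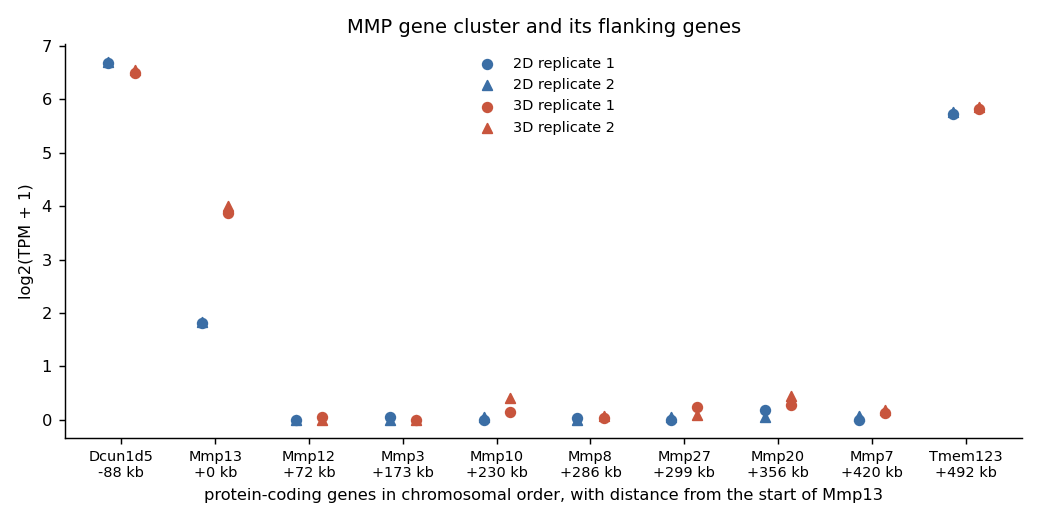
Log2(TPM + 1) of the protein-coding genes of the MMP cluster and their flanking genes in chromosomal order, with the distance of each start from that of Mmp13 in kb. Colours and marks are the cultures and replicates. Mmp13 is near 1.8 in 2D and near 4 in 3D, the 7 other MMP genes lie near 0, and both flanking genes are above 5 in every library.

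Start regions of the cluster were read for sequence words, because many MMP promoters are known for an AP-1 element close to a TATA box. Promoters of RefSeq (GRCm38.p6, from 250 bases before each start to 50 after it) were found for 39 of the 66 members and for 8 of the 8 cluster genes. The AP-1 word TGAGTCA, searched on both strands, was present for 5 of the 8 cluster genes and for 1 further member, Adam19, against 5.95% of the 27025 genes of the promoter table. The word TATAAA on either strand was present for 7 of the 8, against 15.7% of all genes. A gene counted if any of its starts held the word. Counted by start, 5 of 10 cluster promoters held the AP-1 word and 7 held TATAAA, against 5.20% and 13.6% of all 32851 promoters. The stretch from 110 bases before to 20 bases after the start is printed for the 5 genes with the AP-1 word, since it shows Mmp13, which rose, beside 4 neighbours at or near 0 with the same words. Capitals mark the AP-1 word, which reads TGACTCA on the opposite strand, and the word TATAAA.
Mmp13 (chr9:7272404-7272533, + strand): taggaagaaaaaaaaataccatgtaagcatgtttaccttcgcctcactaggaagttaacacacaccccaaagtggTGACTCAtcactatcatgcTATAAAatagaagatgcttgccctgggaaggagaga
Mmp12 (chr9:7347264-7347393, + strand): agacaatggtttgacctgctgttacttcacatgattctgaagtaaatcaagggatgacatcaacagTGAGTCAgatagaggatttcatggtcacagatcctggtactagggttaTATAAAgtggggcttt
Mmp3 (chr9:7445712-7445841, + strand): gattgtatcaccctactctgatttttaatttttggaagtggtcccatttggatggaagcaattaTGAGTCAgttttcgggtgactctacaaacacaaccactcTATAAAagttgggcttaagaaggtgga
Mmp10 (chr9:7502232-7502361, + strand): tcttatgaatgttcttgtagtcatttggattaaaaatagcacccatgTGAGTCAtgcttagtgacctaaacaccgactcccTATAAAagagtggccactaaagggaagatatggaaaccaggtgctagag
Mmp7 (chr9:7691980-7692109, + strand): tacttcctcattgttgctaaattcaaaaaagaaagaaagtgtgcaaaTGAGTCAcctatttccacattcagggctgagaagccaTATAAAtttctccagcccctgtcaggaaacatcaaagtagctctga

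The AP-1 word begins 35 bases upstream of the start in Mmp13, 44 in Mmp12, 46 in Mmp3 and 63 in both Mmp10 and Mmp7. The word TATAAA begins 16 bases upstream in Mmp13, 7 in Mmp3, 29 in Mmp10 and 26 in Mmp7. In Mmp12 it lies after the start, at position 5. For Mmp12 the region shown belongs to one of its annotated starts. Of the starts of a gene, one with the AP-1 word was printed where there was any. The Mmp12 region lies inside the listed gene, which begins at 7344381. A word in this window is a description of the letters and not of a bound site. Cluster genes that held the same words in the same order, at differing distances from the start, had levels from 0 to 15.0 TPM. The part of the words in these levels was not tested.

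Members with a testable level also differed from the others in the start region. The median number of CG dinucleotides per promoter, taking the richest start of each gene, was 24 over 16 tested members and 4 over 23 untested members, against 8 over all genes of the promoter table. The GC box word GGGCGG was present on either strand for 14 of the 16 tested members and 8 of the 23 untested ones, and for 38.2% of all genes. Mmp13, with 1 CG, was the tested member with the fewest. These counts describe the genes, and no test was made. Tested and untested genes of the whole promoter table were not compared, so the difference cannot be called particular to the members.

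Of 17 ADAMTS genes 6 were tested, 3 were higher and 1 was lower. The 4 called were 66.7% of those tested, against 50.5% of all genes tested. Adamts14, which removes the amino-terminal propeptide of fibrillar procollagens, was the most abundant (chromosome 10, 61197112 to 61273438). It was at 8.72 and 10.3 TPM in 2D and 24.6 and 24.0 TPM in 3D, a 2.56-fold difference (log2 fold change 1.27, SE 0.10, limma adjusted p 0.00101). Adamts2, which does the same step, was at 1.3 and 2.14 TPM in 2D and 6.19 and 5.91 TPM in 3D, a 3.51-fold difference. The log2 change was 1.39 (SE 0.18, adjusted p by limma 0.00404), or 1.79 and 0.72 with pseudocounts of 0.1 and 5. Adamts3, the remaining procollagen N-proteinase, was listed at 0 in 3 libraries and at 0.0308 TPM in 3D replicate 1.

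Adamts1, a protease of versican and other proteoglycans, was at 2.97 and 3.38 TPM in 2D and 7.38 and 6.84 TPM in 3D. It was 2.24-fold higher in 3D, a log2 change of 0.96 (SE 0.11, limma adjusted p 0.00267), or 1.14 and 0.57 with pseudocounts of 0.1 and 5. Its neighbour on chromosome 16, Adamts5, also a proteoglycan-degrading enzyme, did not exceed 0.0175 TPM. Adamts9, another enzyme of that group, was below the level needed for the test, at 0.318 and 0.324 TPM in 2D and 0.607 and 0.832 TPM in 3D.

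Adamts6 moved the other way and was the single tested secreted protease that was lower in 3D. It was at 6.37 and 6.87 TPM in 2D and 2.07 and 2.15 TPM in 3D, a 3.13-fold difference (log2 fold change -1.29, SE 0.10, limma adjusted p 0.0011). With pseudocounts of 0.1 and 5 the log2 change was -1.60 and -0.71. Adamts6 made up 23.8% and 20.9% of the summed ADAMTS level in 2D and 4.42% and 4.52% in 3D, while Adamts14 made up 32.6% and 31.2% in 2D and 52.5% and 50.5% in 3D. Adamts10, the close relative of Adamts6, did not pass the test, at 2.14 and 3.52 TPM in 2D and 2.09 and 2.84 TPM in 3D (limma adjusted p 0.663). Adamts7 also missed the threshold, although its libraries did not overlap, at 3.13 and 3.99 TPM in 2D and 2.28 and 2.89 TPM in 3D (limma adjusted p 0.132).

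**Figure D3:**
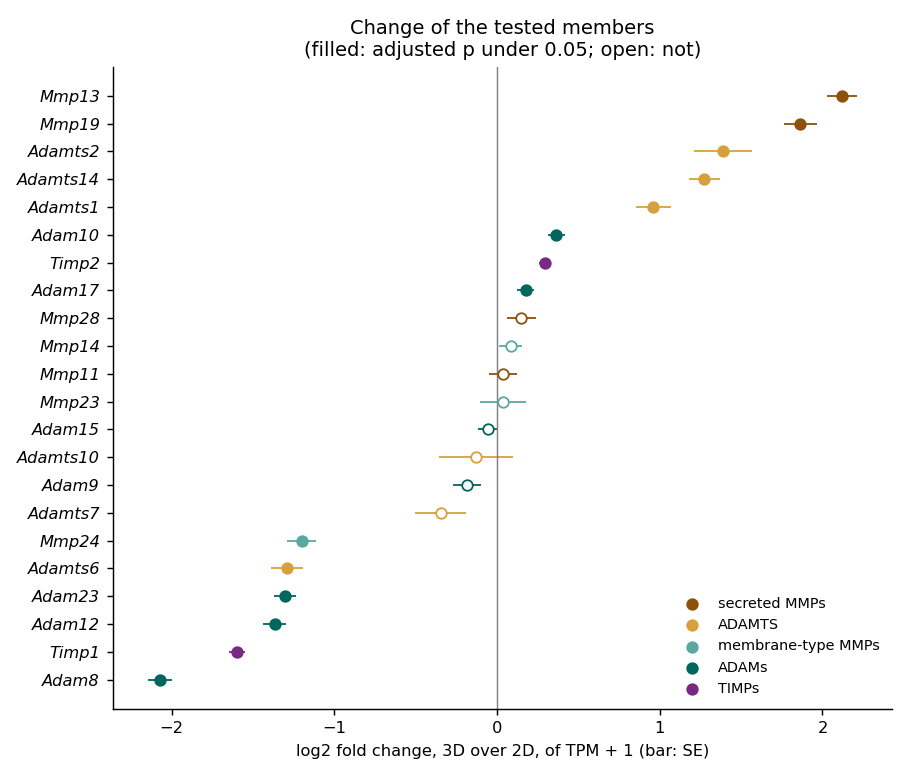
Log2 fold change of TPM + 1, 3D over 2D, of the 22 tested members with its SE, in order of the change and coloured by family. Filled points have a limma adjusted p-value under 0.05. Mmp13 (2.12) is at the top and Adam8 (-2.07) at the bottom. All 5 of the largest rises are secreted proteases.

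The membrane-type MMPs kept a nearly constant sum, at 96.3 and 107 TPM in 2D and 96.3 and 96.1 TPM in 3D. Of 6 such genes 3 were tested, 0 were higher and 1 was lower. The 1 called was 33.3% of those tested, against 50.5% of all genes tested. Mmp14, the membrane-anchored collagenase that also activates the MMP2 precursor, was at 76.2 and 86.5 TPM in 2D and 85.8 and 86.3 TPM in 3D, a log2 change of 0.08 (SE 0.07, limma adjusted p 0.385) and overlapping cultures. It made up 79.1% to 89.8% of the family in each library. Mmp24, a membrane-type MMP best known from the nervous system, fell from 17.5 and 17.2 TPM in 2D to 7.47 and 6.54 TPM in 3D, a 2.48-fold difference. The log2 change was -1.20 (SE 0.09, adjusted p by limma 0.000999). Mmp23, held in the membrane by its amino-terminal part, did not pass the test at 2.05 and 2.62 TPM in 2D and 2.25 and 2.56 TPM in 3D (limma adjusted p 0.858).

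The ADAMs had the highest summed protease level, 605 and 675 TPM in 2D and 447 and 453 TPM in 3D. Of 25 ADAM genes 7 were tested, 2 were higher, 3 were lower and 2 did not pass the test. The 5 called were 71.4% of those tested, against 50.5% of all genes tested. The largest fall was in Adam8, a sheddase best known from leukocytes (chromosome 7, 139978932 to 139992562). Its level was 104 and 117 TPM in 2D and 25.0 and 25.8 TPM in 3D, a 4.34-fold difference. On the log2 scale the change was -2.07 (SE 0.07, adjusted p by limma 0.000245), the 67th in order from the lowest among all genes tested. Of the 5 macrophage and leukocyte markers, Adgre1, Ptprc and Csf1r were near 0 in both cultures, Cd14 was higher in 3D (113 and 114 TPM in 2D, 271 and 271 TPM in 3D), and Cd68 was at 18.3 to 25.5 TPM. Their part in the fall of Adam8 was not tested.

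Adam12 and Adam23 fell by similar factors. Adam12, a membrane protease that can release heparin-binding EGF, was at 74.8 and 82.8 TPM in 2D and 30.8 and 29.1 TPM in 3D (log2 fold change -1.37, SE 0.07, limma adjusted p 0.000485). Adam23, which lacks a working catalytic site and binds integrins and other surface proteins, was at 79.7 and 88.2 TPM in 2D and 33.8 and 33.0 TPM in 3D (log2 fold change -1.30, SE 0.07, limma adjusted p 0.000465). The folds were 2.63 for Adam12 and 2.52 for Adam23, and for both genes both 3D libraries lay well below both 2D libraries. Adam8, Adam23 and Adam12 were the most abundant ADAMs after Adam9 in 2D, and in 3D they ranked below Adam10, Adam15 and Adam17.

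The main constitutive sheddases changed far less. Adam10, which cuts Notch receptors and E-cadherin, was at 58.3 and 61.3 TPM in 2D and 76.1 and 78.3 TPM in 3D, 1.29-fold higher (log2 fold change 0.36, SE 0.05, limma adjusted p 0.00521). Adam17, the TNF-alpha converting enzyme that also releases EGF receptor ligands, was at 41.6 and 42.1 TPM in 2D and 48.3 and 46.6 TPM in 3D, 1.13-fold higher (log2 fold change 0.18, SE 0.05, limma adjusted p 0.0426). The call for Adam17 was lost when any 1 of the 4 libraries was left out, with adjusted p-values of 0.0895 to 0.191. The ratio of Adam8 to Adam10 was 1.79 and 1.90 in 2D and 0.329 and 0.330 in 3D, so that Adam8 was above Adam10 in the 2D libraries and below it in the 3D libraries.

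Adam9, the most abundant ADAM, was at 194 and 228 TPM in 2D and 182 and 188 TPM in 3D and did not pass the test (log2 fold change -0.18, SE 0.09, limma adjusted p 0.142). Without 2D replicate 1 it was called lower (log2 fold change -0.30, limma adjusted p 0.0161). Adam15, a sheddase with an integrin-binding motif, was at 50.2 and 53.8 TPM in 2D and 49.8 and 50.0 TPM in 3D (limma adjusted p 0.433). Adam32 begins at 24836140 on chromosome 8 and ends at 24948804, next to Adam9 (24949611 to 25016927) on the same strand, yet was at 0.0853 to 0.372 TPM. Of the untested ADAMs the highest was Adam4, at 0.996 and 0.994 TPM in 2D and 0.431 and 0.473 TPM in 3D.

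The inhibitors were more abundant than the MMPs in every library, and the 2 expressed TIMPs moved in opposite directions. Timp1 (ENSMUSG00000001131, chromosome X, 20870166 to 20874735), an inhibitor of most secreted MMPs that is known as an injury and growth factor responsive gene, was at 192 and 180 TPM in 2D and 60.6 and 60.7 TPM in 3D. The difference was 3.07-fold, a log2 change of -1.60 (SE 0.05, limma adjusted p 0.00023). Timp2 (chromosome 11, 118301069 to 118355740), which inhibits MMPs and also joins MMP14 in activating MMP2, was at 318 and 325 TPM in 2D and 398 and 389 TPM in 3D, 1.23-fold higher. The log2 change was 0.29 (SE 0.04, adjusted p by limma 0.0037).

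The ratio of Timp1 to Timp2 was 0.604 and 0.554 in 2D and 0.152 and 0.156 in 3D. Timp1 made up 37.6% and 35.6% of the summed TIMP level in 2D and 13.2% and 13.5% in 3D. The sum itself was 510 and 506 TPM in 2D and 459 and 450.2 TPM in 3D. Timp3, the TIMP that binds matrix and is the main inhibitor of ADAM17 and ADAMTS enzymes, was at 0.183 and 0.250 TPM in 2D and 0.0707 and 0.0763 TPM in 3D. Timp4 was at 0.0401 and 0.0324 TPM in 2D and 0.0221 and 0.0339 TPM in 3D. Neither Timp3 nor Timp4 was tested.

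**Figure D4:**
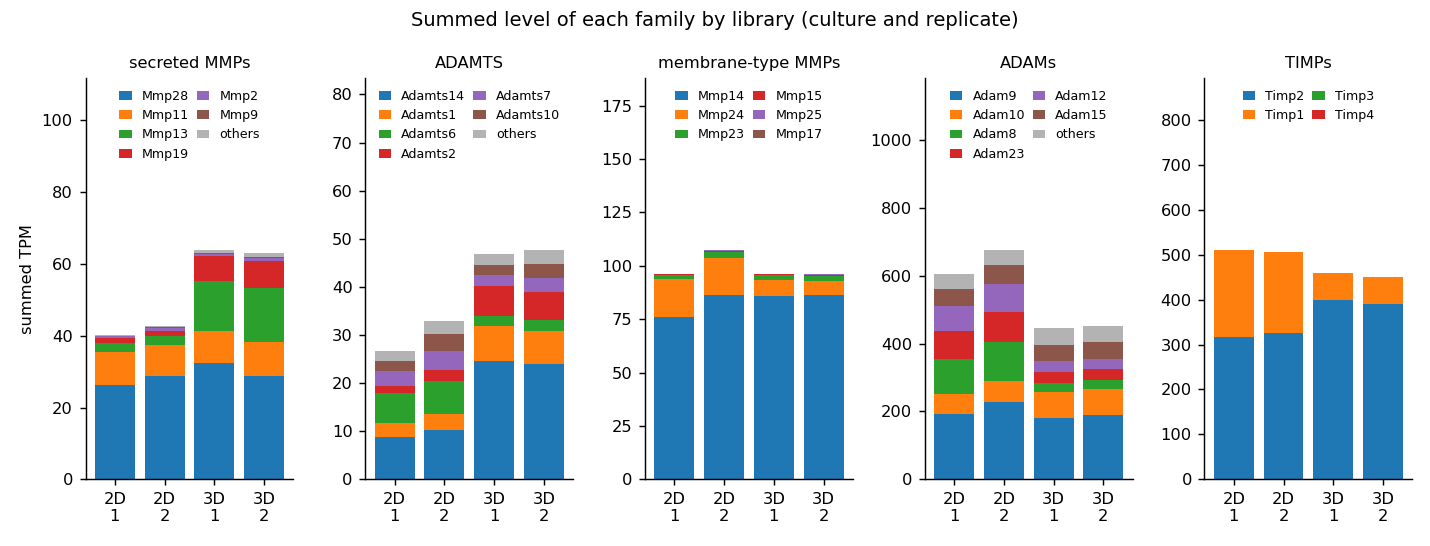
Summed TPM of each family in each library, stacked by gene (the 6 genes with the highest mean TPM, and the others together), with every axis starting at 0 and a scale of its own. The secreted MMP and ADAMTS sums are higher in the 3D libraries, the ADAM sum is lower there (447 and 453 against 605 and 675 TPM), and in the TIMP panel Timp1 takes a smaller part in 3D.

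The summed TIMPs exceeded the summed MMPs of both kinds 3.73- and 3.37-fold in the 2D libraries and 2.87- and 2.83-fold in the 3D libraries. The ratio of Timp2 to Mmp14 alone was 4.17 and 3.76 in 2D and 4.64 and 4.51 in 3D. Both ratios are of RNA levels and carry no information on active protein, and sums over a family carry no test. The start regions of the 2 expressed TIMPs are printed because these genes moved apart. The Timp2 region belongs to a RefSeq start inside the listed gene, whose span on this strand begins at 118355740. Capitals mark the GC box word GGGCGG, or CCGCCC on the opposite strand, and neither promoter holds the AP-1 word.
Timp1 (chrX:20870056-20870185, + strand): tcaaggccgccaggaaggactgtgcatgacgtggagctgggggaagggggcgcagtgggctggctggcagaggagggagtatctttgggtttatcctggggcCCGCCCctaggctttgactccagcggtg
Timp2 (chr11:118355392-118355521, - strand): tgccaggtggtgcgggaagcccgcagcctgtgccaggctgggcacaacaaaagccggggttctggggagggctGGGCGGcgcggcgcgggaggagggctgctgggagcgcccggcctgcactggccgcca

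Genes that activate, tether, clear or inhibit these proteases, and known substrates of the sheddases, were then read from the same fit. Of 53 such genes read from the table, 37 were tested, 17 were higher, 9 were lower and 11 did not pass the test. The 26 called were 70.3% of those tested, against 50.5% of all genes tested. Of the 37, 4 (10.8%) also had a log2 change above 1 in size, against the 8.2% of all genes given above.

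Activators of the proteases moved in both directions, with 3 of 7 tested genes higher and 3 lower. The 6 called were 85.7% of those tested, against 50.5% of all genes tested. The 3 tested activators with the highest mean TPM are described here, and the others that were tested were all called. Furin, the proprotein convertase that removes the propeptide of many MMPs and ADAMs, was at 111 and 67.9 TPM in 2D and 170 and 186 TPM in 3D (log2 fold change 1.02, SE 0.24, limma adjusted p 0.0232). Its call was lost without 3D replicate 1 or without 3D replicate 2, at adjusted p-values of 0.130 and 0.143. The log2 fold change was 1.37 without 2D replicate 1 and 0.67 without 2D replicate 2. Bmp1, a procollagen C-proteinase, was at 85.1 and 81.9 TPM in 2D and 75.3 and 74.5 TPM in 3D (limma adjusted p 0.0452). Its call was lost when any library was left out, with log2 changes of -0.18 to -0.13. It was also lost with each other scaling of the libraries, at limma adjusted p-values of 0.0798 (centring), 0.0849 (quantile normalization) and 0.0758 (rescaling). No filter and a constant prior variance ended it too. Plaur, the urokinase receptor, did not pass the test at 70.8 and 86.3 TPM in 2D and 60.01 and 65.8 TPM in 3D (limma adjusted p 0.0736), but was called lower without 2D replicate 1 (limma adjusted p 0.0207). Plasminogen, whose active form plasmin cuts MMP precursors, did not exceed 0.0441 TPM as Plg.

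Of the other inhibitors and clearance genes 4 were tested, 1 was higher and 1 was lower. The 2 called were 50% of those tested, near the 50.5% of all genes tested. Adamtsl5, an ADAMTS-like protein without a protease domain, went from 30.2 and 34.3 to 20.3 and 19.5 TPM (log2 fold change -0.67, limma adjusted p 0.00374). Lrp1, the endocytic receptor that takes up MMPs and TIMPs, was higher, at 19.6 and 23.6 TPM in 2D and 30.3 and 29.7 TPM in 3D (limma adjusted p 0.02). That call was lost without either 3D library, at adjusted p-values of 0.0842 and 0.0737. Adamtsl4, another ADAMTS-like protein, was at 17.5 and 19.0 TPM in 2D and 23.1 and 20.4 TPM in 3D and did not pass the test (limma adjusted p 0.0858). Reck, a membrane-anchored MMP inhibitor, was at 1.07 to 1.73 TPM and did not pass the test.

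Partners that carry the sheddases to the surface included the largest fall of this group. Tspan5, one of the TspanC8 tetraspanins that escort ADAM10, was at 45.1 and 47.4 TPM in 2D and 12.5 and 10.1 TPM in 3D, a 4.09-fold difference (log2 fold change -1.95, SE 0.11, limma adjusted p 0.000553). The TspanC8 genes Tspan14 and Tspan15 were instead higher in 3D, by 0.42 and 0.41 on the log2 scale (adjusted p by limma 0.0159 and 0.0141), while Tspan17 and Tspan33 did not pass the test. Leaving out 3D replicate 1 or 3D replicate 2 ended both calls, at adjusted p-values of 0.0538 and 0.0876 for Tspan14 and 0.0649 and 0.0704 for Tspan15, and that for Tspan14 was also lost without 2D replicate 1 (0.0561). For ADAM17, the iRhom gene Rhbdf2 was at 114 and 122 TPM in 2D and 144 and 143 TPM in 3D (limma adjusted p 0.00958, and 0.0589 or 0.0551 without either 3D library). The other iRhom gene, Rhbdf1, rose from 23.6 and 27.2 to 48.3 and 33.7 TPM (log2 change 0.65, limma adjusted p 0.0417). Its call was lost without 2D replicate 1, without 2D replicate 2 or without 3D replicate 1, at adjusted p-values of 0.227, 0.140 and 0.0764, and the log2 change was 0.40 without 3D replicate 1. Frmd8, which stabilises the iRhoms, was lower at 206 and 210 TPM in 2D and 130 and 129 TPM in 3D (log2 fold change -0.68, limma adjusted p 0.000537). Bsg, an inducer of MMPs on neighbouring cells, was at 526 to 611 TPM and did not pass the test.

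Among the sheddase substrates 17 were tested, 9 were higher and 3 were lower. These 12 were 70.6% of those tested, beside the 50.5% called among all genes. Cdh1, E-cadherin, was at 16.0 and 15.6 TPM in 2D and 72.9 and 68.4 TPM in 3D, a 4.48-fold difference (log2 fold change 2.09, SE 0.06, limma adjusted p 0.000215). Vcam1, an adhesion molecule, rose from 20.2 and 20.1 to 60.8 and 59.7 TPM (log2 fold change 1.53, limma adjusted p 0.000241). Tnfrsf1a, the TNF receptor that ADAM17 sheds, rose from 119 and 127 to 204 and 214 TPM (log2 fold change 0.76, limma adjusted p 0.00084). Cd44, the hyaluronan receptor, was lower at 170 and 176 TPM in 2D and 141 and 147 TPM in 3D (limma adjusted p 0.00877, and 0.0628 without 3D replicate 1), and App did not pass the test. Notch1, a receptor that ADAM10 cuts, rose from 96.3 and 107 to 191 and 184 TPM (log2 fold change 0.88, limma adjusted p 0.000993). Tnf, the substrate after which ADAM17 is named, had too low a mean for the test, at 0.0769 and 0.0366 TPM in 2D and 1.10 and 1.51 TPM in 3D. The EGF receptor ligands moved in both directions. Hbegf fell from 66.5 and 64.9 to 39.6 and 40.2 TPM (limma adjusted p 0.000807), and Btc rose from 6.38 and 6.09 to 12.9 and 13.3 TPM (limma adjusted p 0.00122). Ereg rose from 20.5 and 19.6 to 23.6 and 24.2 TPM (limma adjusted p 0.0324, and 0.0561 to 0.146 when any library was left out). Areg was at 132 and 130 TPM in 2D and 137 and 150.2 TPM in 3D and did not pass the test.

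Tgfa, an EGF receptor ligand released by ADAM17, was singled out after its values were seen, because 1 library stood apart. The line carries a human TGF-alpha transgene and alignment was to the mouse genome. The part of transgene RNA in the Tgfa values was not tested. Tgfa was at 68.4 TPM in 2D replicate 1 and 9.41 TPM in 2D replicate 2, against 12.3 and 13.1 TPM in 3D. On the log2 scale the difference was -0.98 (SE 0.90, adjusted p by limma 0.410), which became 0.39 without 2D replicate 1 (limma adjusted p 0.0445) and -2.35 without 2D replicate 2 (limma adjusted p 0.0023).

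**Figure D5:**
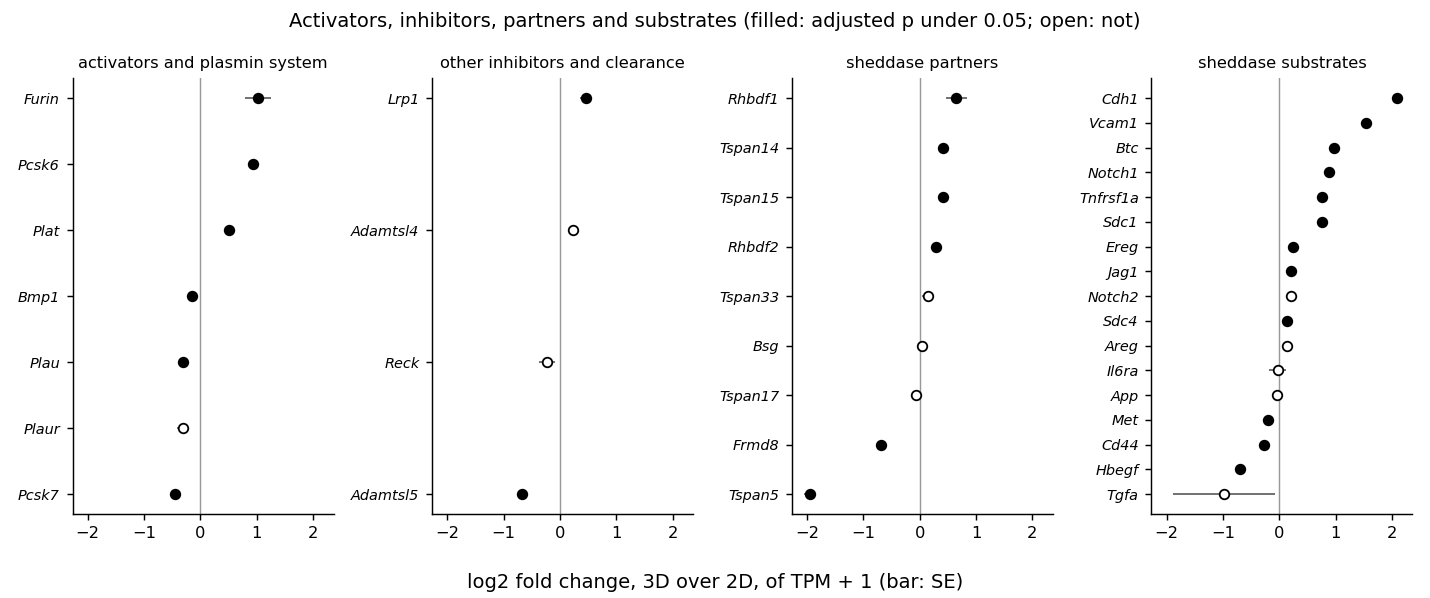
Log2 fold change of TPM + 1, 3D over 2D, with its SE for the 37 tested activators, other inhibitors, sheddase partners and sheddase substrates. Filled points have a limma adjusted p-value under 0.05. Tspan5 (-1.95) and Cdh1 (2.09) are the outermost points, and Tgfa has the widest error (SE 0.90).

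Replicates of the called members differed by less than the cultures did. For some members that did not pass the test, such as Adamts10 and Mmp23, they differed by more. Over the tested members, the difference between the 2D libraries had a median of 0.14 on the log2(TPM + 1) scale. It was largest for Adamts10 at 0.52, whose log2 change between cultures was -0.13. Between the 3D libraries the median was 0.05 and the largest value, again for Adamts10, was 0.31.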

How the data were processed

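RNA of 2D- and 3D-cultured AML12 cells was measured in 4 libraries, 2 per culture, made from polyadenylated RNA with a stranded kit. Trimming by the authors used cutadapt (version 1.8.3), then Trimmomatic (0.36). Alignment to GRCm38 used HISAT2 (2.0.5), and StringTie (1.3.4) gave the gene levels. The values used are the TPM per library that the authors deposited, with replicates not pooled. TPM is relative within a library and keeps no depth, so the depth is unknown and no counting interval is given. A value listed at 0 can be a failed estimate. The fold changes and p-values of the authors' own comparison in the same table were not used. A log2 scale was computed here from the deposited TPM.

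Genes with a mean of at least 1 TPM were compared on the scale of log2(TPM + 1). The fit was limma's (3.58.1, under R 4.3.3), with eBayes trend and robust variance, two-sided, with Benjamini-Hochberg adjustment over all 14116 genes tested. The script was tested on simulated data. An exact permutation test of 2 against 2 cannot go below 0.333 and was not used. All 66 members were found by identifier in GENCODE M21, 65 of them at the same position, and 0 share an exon on their strand with another gene. Tables were made with Python 3.11.15 and figures with matplotlib 3.10.9.

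The members and gene lists were chosen with earlier results of these data known. Every member could be named. Values of every library are given for the TIMPs, for the 3 members of each class with the highest mean TPM and for up to 8 called members per class with the largest changes. Of the partner lists the 3 most abundant genes and those changed by more than 1 are given, and other partner genes (Plg, Reck, Tspan14, Tspan15, Tspan17, Tspan33, Rhbdf1, Notch1, Tnf, Hbegf, Btc, Ereg, Areg, Tgfa) were named after their values were seen. Tfpi2 and Col1a2 were not analysed here, and 1 further gene of the partner lists is not reported here and entered no partner count. The alternatives tried changed the pseudocount (0.1 or 5), the filter (none, or at least 5 TPM on average), the scaling (centring, quantile normalization, rescaling without mitochondrial and the 20 highest genes) and the variance prior, added a replicate block, made calls stricter or left out each library in turn. With a library left out, the lone one was assumed to vary like the others.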

Additional observations from a re-analysis of the deposited data

How the results depend on the processing

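The 22 tested members and 27 named partner genes gave 629 values under the 13 alternative fits. Of these 619 kept their direction, 43 were no longer past the threshold, 5 newly were and 10 changed sign (Tgfa without 2D replicate 1 did both). Members higher in 3D numbered 8 and members lower 6. Requiring a change of more than 1 on the log2 scale left 4 members, 0 ADAMs, 0 TIMPs and 3 partner genes higher, and 1 partner gene lower. An adjusted p under 0.01 left 1 ADAM and 9 partner genes higher. ADAMs higher in 3D were 1, in place of 2, with no filter and with a constant prior variance, the loss being Adam17. Of all genes in each fit, 18.8% were called with no filter and 47.2% with a constant prior variance, against 50.5% in the main fit. A mean of at least 5 TPM left 3 secreted proteases higher and 0 lower, since fewer genes were tested. Leaving out each library gave 7 members higher and 6 to 7 lower, 1 ADAM higher, and 8 to 15 partner genes higher (8 without 3D replicate 1 and 9 without 3D replicate 2, against 17) and 5 to 8 lower (5 without 3D replicate 1, against 9). Some genes changed sign when a library was left out, with log2 fold changes of -0.39 to 0.13 for Adamts10, -0.0178 to 0.0936 for Mmp11, -0.0076 to 0.174 for Mmp14, -0.0883 to 0.156 for Mmp23, -0.0936 to 0.0161 for App, -0.0744 to 0.142 for Bsg, -0.143 to 0.0312 for Tspan17 and -2.35 to 0.39 for Tgfa. Apart from Tgfa none of them was past the threshold. The cause was not tested.

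Deviations from the culture means had a correlation of -0.0549 over 14116 genes between libraries of equal number. Each culture gives only a single difference between its replicates. The value therefore cannot show whether libraries of equal number were prepared or sequenced together, and the labels do not say. In the fit with the replicate block, 44.3% of all genes tested were called, against 50.5% in the main fit. In the block fit 1 ADAM was higher in 3D, Adam17 being lost (limma adjusted p 0.0999), and partner genes were 12 higher and 8 lower. Furin (0.0785), Bmp1 (0.0981), Rhbdf1 (0.0908) and Ereg (0.0750) lost their calls in it, Plaur gained one (0.0257), and the calls of the other members and named partner genes did not change.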
